A study of Homo sapiens with 16 samples.

Results

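AGPAT9, PITPNC1 and 7 related genes of glycerolipid synthesis and phosphatidylinositol transfer were followed over 16 arrays of U-87MG cells, an established human glioblastoma line. The 9 genes were taken by name from the deposited table, each through the row that the platform annotation gives to that symbol alone, out of 14040 genes with such a row. Every one of the 9 had 1 row. AGPAT9 is the older name of GPAT3. The groups were I3P+SR1 (indole-3-pyruvate at 25 µM with the aryl hydrocarbon receptor antagonist SR1 at 1 µM), I3P alone at 25 µM, SR1 alone at 1 µM, and a carrier control of 0.1% DMSO. Each held 4 arrays, labelled as biological replicates 1 to 4. All groups share this line, called AHR proficient by the submitters, with no genetic change named in the labels. A single line limits the study as a model of glioma, and the length of treatment is not given in the sources used here. The aryl hydrocarbon receptor (AHR) is a ligand-activated transcription factor, and the series asks whether I3P, a keto acid made from tryptophan, acts through it. AGPAT9 and PITPNC1 are treated as picked by their response to SR1, being among the genes lower with SR1 than with DMSO at an adjusted p under 0.05, so their values in SR1 against DMSO, in I3P+SR1 against SR1 and in the interaction are given as a description without a test.

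Glycerolipids are built on glycerol-3-phosphate. Glycerol-3-phosphate acyltransferases add the first fatty acid and give lysophosphatidate, 1-acylglycerol-3-phosphate acyltransferases add the second and give phosphatidate, and lipins remove the phosphate to give diacylglycerol, from which triacylglycerol and the main membrane phospholipids are made. Phosphatidylinositol transfer proteins carry lipid monomers between membranes, and so link the endoplasmic reticulum, where phosphatidylinositol is made, to the membranes where it is phosphorylated.

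Values were log2 expression after robust multi-array averaging, and the array medians lay between 8.26 and 8.30. Replicate 1 of I3P stood apart: its gene-wise correlation with any other array was 0.877 to 0.910, whereas pairs drawn from the remaining 15 reached 0.921 to 0.979. For the main I3P differences the value without it is given too. CYP1B1, a standard AHR target, averaged 10.84 ± 0.34 in I3P+SR1, 11.20 ± 0.16 in I3P, 8.28 ± 0.11 in SR1 and 10.85 ± 0.10 in DMSO (SD, n = 4 each). Among markers of the cell type, the DMSO means of VIM and CD44 lay at percentiles 99.8 and 86.4 of all genes, while those of NES and GFAP lay at 26.5 and 28.5. Of the markers of other cell types PTPRC was at percentile 8.88, KRT18 at 23.8, EPCAM at 33.7, SYT1 at 34.0, RBFOX3 at 45.8 and ALB at 90.6. A row's intensity also depends on its probes, and signal over background was not assessed.

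Both AGPAT9 and PITPNC1 were lowest in SR1, and in both the I3P+SR1 arrays overlapped the DMSO arrays. AGPAT9 encodes an acyltransferase of the endoplasmic reticulum that carries out the first step of glycerolipid synthesis. Its log2 values in replicates 1 to 4 were 10.49, 10.76, 10.68 and 10.54 in I3P+SR1, 10.98, 10.86, 10.90 and 10.75 in I3P, 10.07, 10.17, 9.86 and 9.36 in SR1, and 10.74, 10.84, 10.83 and 10.46 in DMSO. All 4 SR1 arrays lay below every other array, a separation from DMSO that 1.23% of all genes showed. The SR1 mean of 9.86 ± 0.36 stood 0.85 (SE 0.15) below the DMSO mean of 10.72 ± 0.18 (SD, n = 4 each), a 1.81-fold lower level. The 1.69-fold difference between I3P+SR1 (10.62 ± 0.12) and SR1 was 0.75 (SE 0.15) on the log2 scale. Since the RNA came from bulk cultures, fewer cells with the transcript and less of it per cell cannot be told apart.

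PITPNC1 encodes a transfer protein of the class II group that carries phosphatidylinositol and phosphatidate. Its log2 values in replicates 1 to 4 were 9.86, 10.03, 10.24 and 10.32 in I3P+SR1, 10.70, 10.41, 10.50 and 10.41 in I3P, 9.08, 9.21, 9.23 and 9.26 in SR1, and 10.15, 10.25, 10.03 and 9.99 in DMSO. The SR1 arrays again lay below all others (1.53% of all genes were higher in every I3P+SR1 array than in any SR1 array), and they were close together, with an SD of 0.08. The SR1 mean of 9.19 stood 0.91 (SE 0.12) below the DMSO mean of 10.10, which is 1.88-fold, and the I3P+SR1 mean of 10.11 stood 0.92 (SE 0.12) above SR1, which is 1.89-fold. Within replicate numbers SR1 minus DMSO ran from -1.09 to -0.67 for AGPAT9 and from -1.08 to -0.73 for PITPNC1, and I3P+SR1 minus SR1 from 0.43 to 1.18 and from 0.78 to 1.06. Both comparisons use the SR1 arrays, so their values are not independent of each other.

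**Figure D1:**
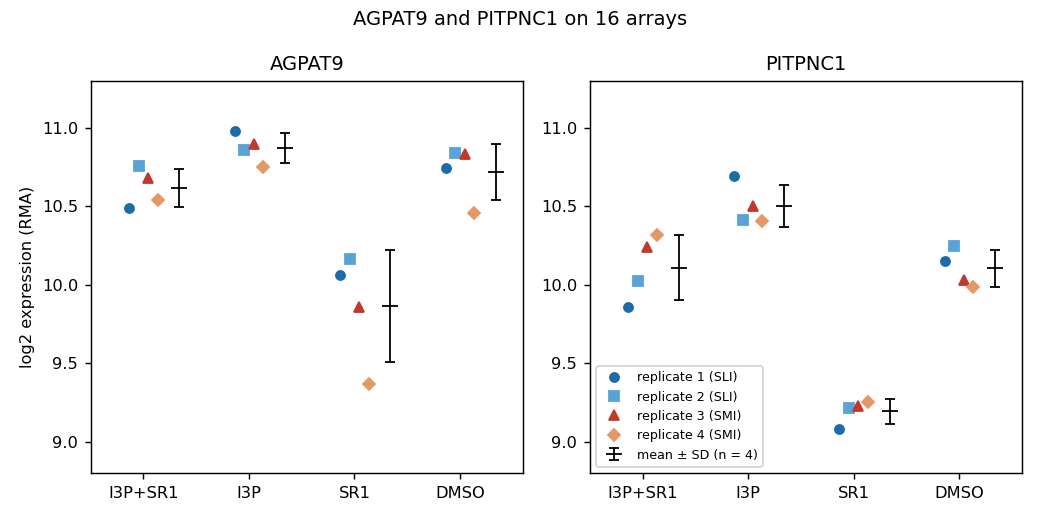
Log2 expression of AGPAT9 (left) and PITPNC1 (right) by group, with 1 point per array shaped by replicate number and the mean ± SD of 4 arrays beside each group. The SR1 points lie below all others in both panels, and the PITPNC1 points of I3P lie above those of I3P+SR1, SR1 and DMSO.

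In SR1 against DMSO, 23 of 14040 genes (0.164%) had an adjusted p under 0.05 by limma with Benjamini-Hochberg adjustment. Of these 22 (0.157%) were lower with SR1, AGPAT9 and PITPNC1 among them. In I3P+SR1 against SR1, 16 genes (0.114%) were higher, among them PITPNC1 but not AGPAT9. As both genes were picked by this response, nothing is read from these counts. The SR1 array of replicate 4 held the lowest AGPAT9 value, and without it the difference from DMSO was -0.69. Within title series SLI, the prefix of replicates 1 and 2, SR1 minus DMSO was -0.68 for AGPAT9 and -1.05 for PITPNC1, and within series SMI, replicates 3 and 4, it was -1.03 and -0.77. The larger difference was thus in SMI for AGPAT9 and in SLI for PITPNC1, and the difference between the series was not tested.

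The response to I3P alone is not a comparison by which these genes are treated as picked. It shares the DMSO arrays with SR1 against DMSO, and the genes were chosen with earlier results of these data known. Its values are therefore not independent of that choice. For PITPNC1 the 4 I3P arrays, from 10.41 to 10.70, lay above the 4 DMSO arrays, from 9.99 to 10.25. The means of 10.50 ± 0.14 in I3P and 10.10 ± 0.12 in DMSO (SD, n = 4 each) differed by 0.40 (SE 0.12), or 1.32-fold, with a 95% interval of 0.15 to 0.65. The adjusted p by limma was 0.999, so the difference did not pass, and no gene of the 14040 did (0%). At an unadjusted p under 0.05 there were 395 genes (2.81%), PITPNC1 among them. Arrays that did not overlap, with I3P higher, were found in 0.99% of all genes. Without I3P replicate 1 the difference was 0.34. For AGPAT9 the I3P values exceeded the DMSO values of the same replicate number in 4 of 4 pairs, by 0.02 to 0.30, and the groups overlapped. Its difference was 0.16 (SE 0.15, 95% interval -0.17 to 0.48, adjusted p = 0.999 by limma). It was 0.07 without DMSO replicate 4 and 0.12 without I3P replicate 1.

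With both compounds set against I3P alone, which asks about SR1 in the presence of I3P, the PITPNC1 arrays again did not overlap. The I3P+SR1 arrays ran from 9.86 to 10.32 and the I3P arrays from 10.41 to 10.70, a difference of means of -0.39 (SE 0.12, 95% interval -0.64 to -0.15, adjusted p = 0.999 by limma). Such a separation, lower in I3P+SR1, occurred in 0.741% of all genes, and 0 genes passed the adjusted test (466, or 3.32%, at an unadjusted p under 0.05). The difference was uneven across the title series, at -0.61 within SLI and -0.18 within SMI, and it was -0.33 without I3P replicate 1. AGPAT9 differed by -0.26 (SE 0.15, 95% interval -0.58 to 0.07, adjusted p = 0.999 by limma), with negative differences in 4 of 4 replicate numbers and slightly overlapping arrays. With the replicate block the AGPAT9 interval was -0.50 to -0.0071, with adjusted p = 0.707 by limma. Without I3P replicate 1 the AGPAT9 difference was -0.22.

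Against DMSO, the I3P+SR1 mean of PITPNC1 differed by 0.0048 (95% interval -0.24 to 0.25) and that of AGPAT9 by -0.10 (95% interval -0.42 to 0.22). Neither passed (adjusted p = 1 by limma for each). None of the 14040 genes did, while 194 (1.38%) were below 0.05 before adjustment. For PITPNC1 this near-zero mean held opposite values, -0.26 within SLI and 0.27 within SMI. The order of group means was thus I3P, DMSO, I3P+SR1 and SR1 for AGPAT9, and I3P, I3P+SR1, DMSO and SR1 for PITPNC1. The arrays of I3P+SR1 and DMSO overlapped in both genes. In the interaction, the I3P effect with SR1 minus that without SR1, AGPAT9 had 0.60 (SE 0.21) and PITPNC1 0.52 (SE 0.17). Of all genes only CYP1B1 (0.00712%) passed there, and 2.02% of genes had an unadjusted p under 0.05. For AGPAT9 it was 0.82 within SMI and 0.38 within SLI.

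The promoter windows of these genes are shown because AHR binds the core GCGTG with its partner ARNT, and because AGPAT9 and PITPNC1 were lowest in the same group. RefSeq (GRCh38.p14) gave windows of 250 bases before to 50 after the start for 8 of the 9 genes, 12 windows in all. The AGPAT9 window lies at chr4:83535857-83536156 on the plus strand and that of PITPNC1 at chr17:67377031-67377330 on the plus strand. The window of GPAM lies at chr10:112183716-112184015 and that of PITPNA at chr17:1562743-1563042, both on the minus strand. They are printed 5′ to 3′ on the gene's strand, with GCGTG or its reverse complement CACGC in capitals.
AGPAT9 (GPAT3): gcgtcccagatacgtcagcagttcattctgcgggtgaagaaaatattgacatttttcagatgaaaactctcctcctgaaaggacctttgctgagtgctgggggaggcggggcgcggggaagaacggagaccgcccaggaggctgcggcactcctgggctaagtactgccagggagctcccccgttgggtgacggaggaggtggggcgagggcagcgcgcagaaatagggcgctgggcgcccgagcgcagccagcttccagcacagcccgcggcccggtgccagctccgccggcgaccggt
PITPNC1: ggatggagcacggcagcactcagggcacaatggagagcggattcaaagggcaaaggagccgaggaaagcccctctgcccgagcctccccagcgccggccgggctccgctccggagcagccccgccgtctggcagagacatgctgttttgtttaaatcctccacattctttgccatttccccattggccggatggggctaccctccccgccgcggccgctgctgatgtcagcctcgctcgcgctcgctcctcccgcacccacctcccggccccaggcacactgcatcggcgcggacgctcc
GPAM: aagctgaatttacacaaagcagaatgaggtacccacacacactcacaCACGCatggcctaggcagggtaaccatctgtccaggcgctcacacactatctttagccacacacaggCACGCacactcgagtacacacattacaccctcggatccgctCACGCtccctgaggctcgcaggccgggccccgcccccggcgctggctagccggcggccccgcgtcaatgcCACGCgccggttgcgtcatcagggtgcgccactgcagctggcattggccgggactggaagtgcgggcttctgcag
PITPNA: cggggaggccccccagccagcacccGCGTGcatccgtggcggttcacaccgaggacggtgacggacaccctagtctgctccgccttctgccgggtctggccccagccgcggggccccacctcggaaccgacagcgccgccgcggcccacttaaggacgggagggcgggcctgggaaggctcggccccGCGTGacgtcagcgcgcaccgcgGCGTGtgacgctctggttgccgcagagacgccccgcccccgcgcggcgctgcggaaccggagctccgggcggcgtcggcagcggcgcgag

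The AGPAT9 and PITPNC1 windows held 0 matches to GCGTG on either strand, a second AGPAT9 window shifted by 1 base included. GPAM held 4, all on the reverse strand, and PITPNA held 3, all forward. PITPNB had 2 and LPIN1 had 1 in each of 2 of its 3 windows, so 4 of the 8 genes held the core. It occurred in 36.5% of all 35116 RefSeq windows and in 40.6% of genes. The longer form TNGCGTG, which contains the core, was in 0 of the 8 genes, against 5.51% of all windows and 6.69% of all genes. These are counts of letters in short windows, and sites farther away were not searched.

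GPAM encodes the mitochondrial glycerol-3-phosphate acyltransferase, which catalyses the same reaction as AGPAT9 at another membrane. Its log2 values were 8.96, 9.04, 9.91 and 8.91 in I3P+SR1, 8.85, 9.31, 9.99 and 8.95 in I3P, 8.64, 9.06, 9.04 and 8.41 in SR1, and 9.03, 9.08, 9.57 and 9.02 in DMSO, in replicates 1 to 4. Replicate 3 was the highest in I3P+SR1, I3P and DMSO. SR1 was below DMSO in 4 of 4 replicate numbers, by 0.02 to 0.61, but the groups overlapped, and the difference of -0.39 (SE 0.26, 95% interval -0.94 to 0.16) did not pass, with adjusted p = 1 by limma. With the replicate block its 95% interval was -0.68 to -0.10, with adjusted p = 0.518 by limma. Without DMSO replicate 3 the difference was -0.26. I3P+SR1 minus SR1 was 0.42 (95% interval -0.13 to 0.97, adjusted p = 1 by limma), and 0.18 without I3P+SR1 replicate 3. With the replicate block this interval was 0.12 to 0.71, with adjusted p = 0.394 by limma. Within title series the SR1 difference from DMSO was -0.21 in SLI and -0.57 in SMI.

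AGPAT4 and AGPAT5 encode acyltransferases of the second step. For AGPAT5, log2 values in replicates 1 to 4 were 8.90, 9.31, 9.17 and 9.09 in I3P+SR1, 8.81, 8.96, 8.89 and 8.86 in I3P, 9.32, 9.29, 9.27 and 9.63 in SR1, and 9.02, 9.10, 8.94 and 9.41 in DMSO. SR1 was the highest group and I3P the lowest, the reverse of AGPAT9 and PITPNC1. SR1 exceeded DMSO in 4 of 4 replicate numbers, by 0.19 to 0.32, with a mean difference of 0.26 (SE 0.12, 95% interval -0.0053 to 0.52). I3P lay below DMSO in 4 of 4, with a mean difference of -0.24 (SE 0.12, 95% interval -0.50 to 0.03). Neither passed, with adjusted p = 1 and 0.999 by limma. The I3P difference was -0.14 without DMSO replicate 4 and -0.22 without I3P replicate 1. I3P+SR1 minus SR1 was -0.26 (95% interval -0.52 to 0.0047, adjusted p = 1 by limma) and I3P+SR1 minus I3P was 0.24 (95% interval -0.03 to 0.50, adjusted p = 0.999), or 0.21 without I3P replicate 1.

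AGPAT4 varied most in I3P, where its values were 7.54, 8.28, 8.60 and 8.14, against 8.32, 8.22, 8.20 and 8.17 in DMSO. The lowest was the array of replicate 1 that stood apart. I3P minus DMSO was -0.09 (SE 0.17, 95% interval -0.45 to 0.27, adjusted p = 0.999 by limma), and 0.11 without that array, so its sign rested on it. In I3P+SR1 the values ran from 8.07 to 8.23 and in SR1 from 7.87 to 8.30, and no comparison passed.

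LPIN1 and LPIN2 encode phosphatidate phosphatases that make diacylglycerol, and lipin 1 also acts as a transcriptional coactivator. Their levels followed the title series more than the treatment. The 8 SMI arrays of LPIN1 ran from 8.18 to 8.75 and the 8 SLI arrays from 8.77 to 9.27, with no overlap, as in 0.677% of all genes with SMI lower. The SMI mean was 8.54 ± 0.19 and the SLI mean 9.05 ± 0.14 (SD, n = 8 each). For LPIN2 the SMI mean of 8.53 ± 0.17 was likewise below the SLI mean of 8.82 ± 0.12, with overlapping arrays. The 8 arrays of a series come from only 2 replicate numbers, so no test was made of this difference. By treatment, LPIN1 had differences from DMSO of -0.07 in I3P+SR1, -0.15 in I3P and -0.02 in SR1, and LPIN2 of 0.09, 0.08 and 0.06. None passed. Without I3P replicate 1 the I3P differences were -0.17 for LPIN1 and 0.09 for LPIN2.

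PITPNA and PITPNB encode the class I transfer proteins, which exchange phosphatidylinositol for phosphatidylcholine and are close relatives of each other. PITPNA means were 10.87 ± 0.18 in I3P+SR1, 10.83 ± 0.07 in I3P, 10.69 ± 0.16 in SR1 and 10.84 ± 0.14 in DMSO (SD, n = 4 each). SR1 was below DMSO in 4 of 4 replicate numbers by 0.10 to 0.22, and I3P+SR1 was above SR1 in 4 of 4 by 0.10 to 0.28. The differences were small, -0.15 (95% interval -0.40 to 0.10) for SR1 against DMSO and 0.18 (95% interval -0.07 to 0.43) for I3P+SR1 against SR1, and neither passed (adjusted p = 1 by limma for each). PITPNB was the steadiest of the 9, with an SD over all 16 arrays of 0.10, and means of 11.26 in I3P+SR1, 11.16 in I3P, 11.32 in SR1 and 11.24 in DMSO. Its difference in SR1 against DMSO was 0.08 (95% interval -0.12 to 0.27) and did not pass.

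**Figure D2:**
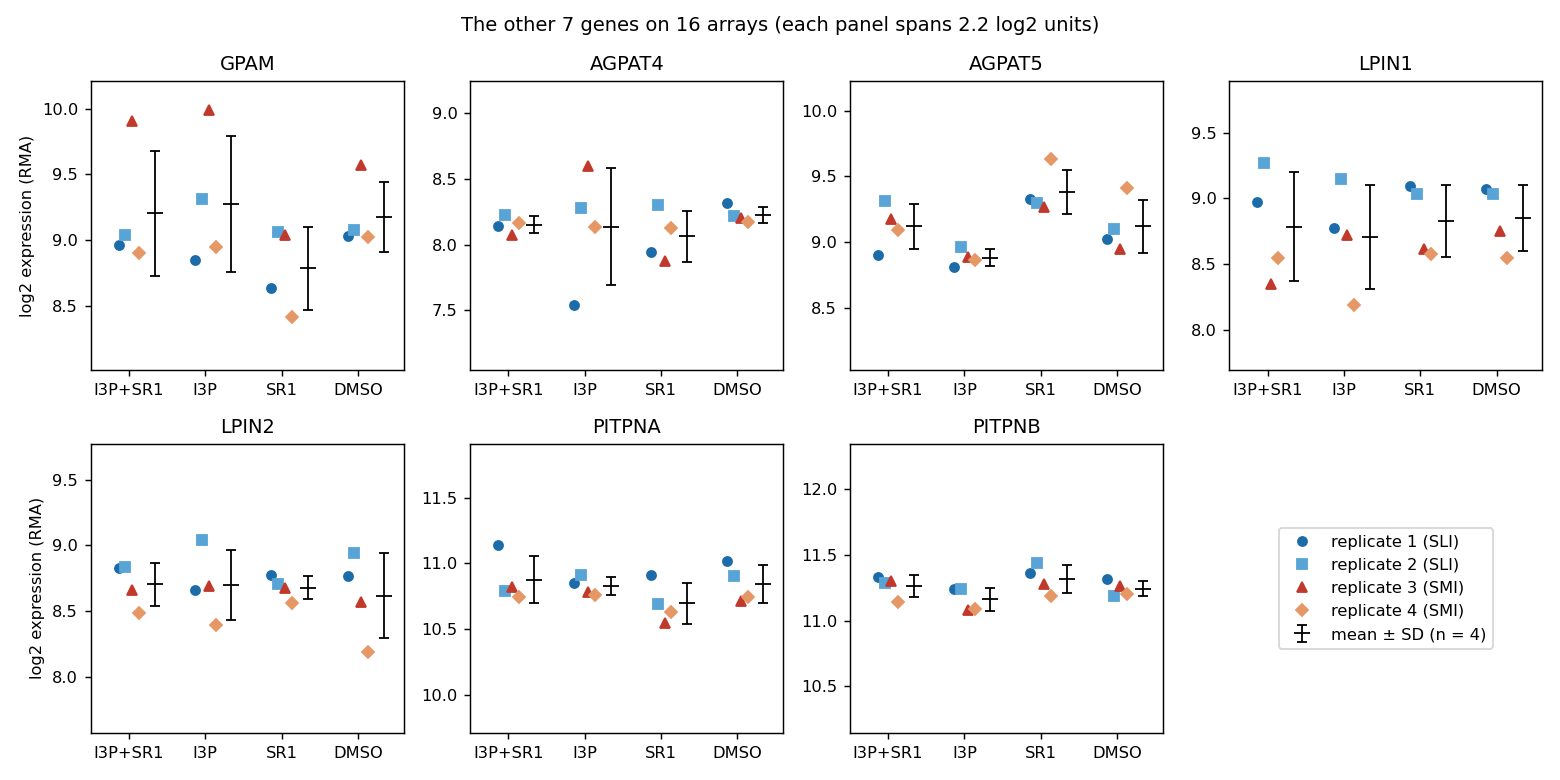
Log2 expression of GPAM, AGPAT4, AGPAT5, LPIN1, LPIN2, PITPNA and PITPNB by group, 1 point per array shaped by replicate number, with the mean ± SD of 4 arrays and the same height of axis in each panel. Replicate 3 is high for GPAM in I3P+SR1, I3P and DMSO, the SMI arrays are low for LPIN1, and SR1 is the highest group for AGPAT5.

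I3P and SR1 alone were not a pair the design compares, and their values are given side by side without a test. PITPNC1 averaged 10.50 in I3P and 9.19 in SR1, a difference of 1.31, with 1.15 to 1.62 within replicate numbers. AGPAT9 averaged 10.87 in I3P and 9.86 in SR1, a difference of 1.01. The I3P arrays of both genes lay above all SR1 arrays, as in 2.31% of all genes. Since AGPAT9 and PITPNC1 were picked by their SR1 response, this separation and the size of their differences follow in part from that choice. Without I3P replicate 1 the differences were 1.25 for PITPNC1 and 0.97 for AGPAT9. AGPAT5 averaged 8.88 in I3P and 9.38 in SR1, a difference of -0.50, with -0.77 to -0.33 within replicate numbers. Its I3P arrays lay below all SR1 arrays, as in 2.43% of all genes, and without I3P replicate 1 the difference was -0.47. I3P and SR1 were the lowest and highest groups of AGPAT5, and its arrays overlapped in every pair the design compares. PITPNB was lower in I3P than in SR1 in each replicate number, with differences of -0.20 to -0.10 and overlapping arrays.

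Over the 7 genes other than AGPAT9 and PITPNC1, none passed in any of the 6 comparisons, by limma without or with the replicate block. At an unadjusted p under 0.05 there were 0 of the 7 in each comparison without the block, beside 3.7% of all genes for I3P+SR1 against SR1. With the block there were 2 for SR1 against DMSO (GPAM and AGPAT5), where 6.17% of all genes had such a p, and 3 for I3P+SR1 against SR1 (GPAM, AGPAT5 and PITPNA), against 7.56% of all genes. AGPAT5 alone was below 0.05 with the block for I3P against DMSO (6.28% of all genes) and for I3P+SR1 against I3P (6.92%). None of the 7 was for I3P+SR1 against DMSO (2.64%) or the interaction (3.96%). The median change over the 7 genes was -0.02 in SR1 against DMSO and 0.03 in I3P+SR1 against SR1, beside 0.0025 and -0.0092 over all genes. In I3P against DMSO it was -0.08, beside -0.02 over all genes.

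**Figure D3:**
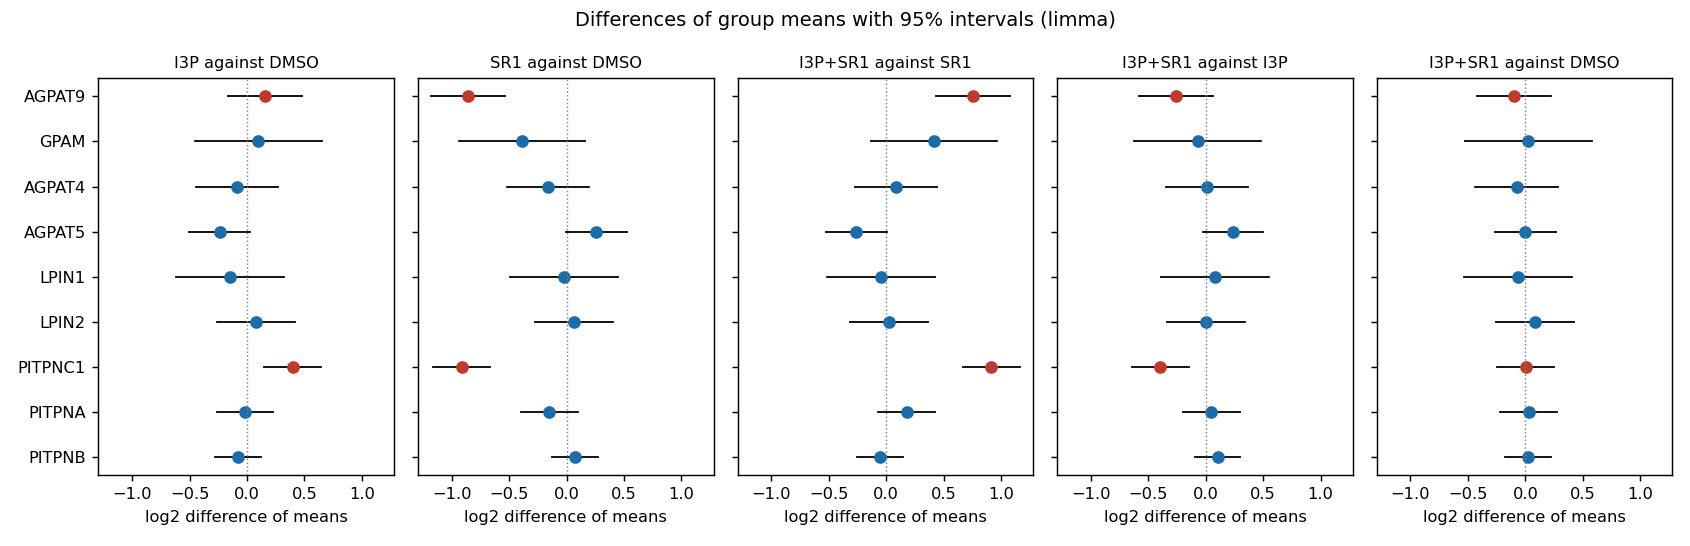
Differences of group means on the log2 scale (points) with 95% limma intervals for a single gene (lines) in 5 comparisons, with AGPAT9 and PITPNC1 in red. In SR1 against DMSO their differences are -0.85 and -0.91. The intervals of the other 7 genes, from the fit without a block, cover 0 in every panel. With the replicate block, those of GPAM, AGPAT5 and PITPNA left out 0 in some comparisons, as did that of AGPAT9 in I3P+SR1 against I3P.

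The sources of variation differed among the 9 genes. Treatment took 93.8% of the sum of squares of PITPNC1 over 16 arrays and 81.5% of that of AGPAT9, which follows from how they were picked. AGPAT5 is not treated as picked by a comparison, though the 9 genes were chosen with earlier results of these data known. Its treatment share was 61.6%, the highest of the 9 after PITPNC1 and AGPAT9, and 99.0% of all genes had a smaller share. The replicate number took 78.7% for LPIN1, 74.7% for LPIN2, 63.5% for GPAM and 57.8% for PITPNA, against a median of 34.6% over all genes. For PITPNC1 the replicate number took 0.179%, and only 0.007% of genes had a smaller share. With treatment at 93.8% little was left for it, so this too follows in part from the picking. The replicate share counts only differences common to the treatments. Shifts between title series that differed by treatment, as PITPNC1 showed, fall in the remainder. In AGPAT4 the remainder, which neither explains, took 72.5%.

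**Figure D4:**
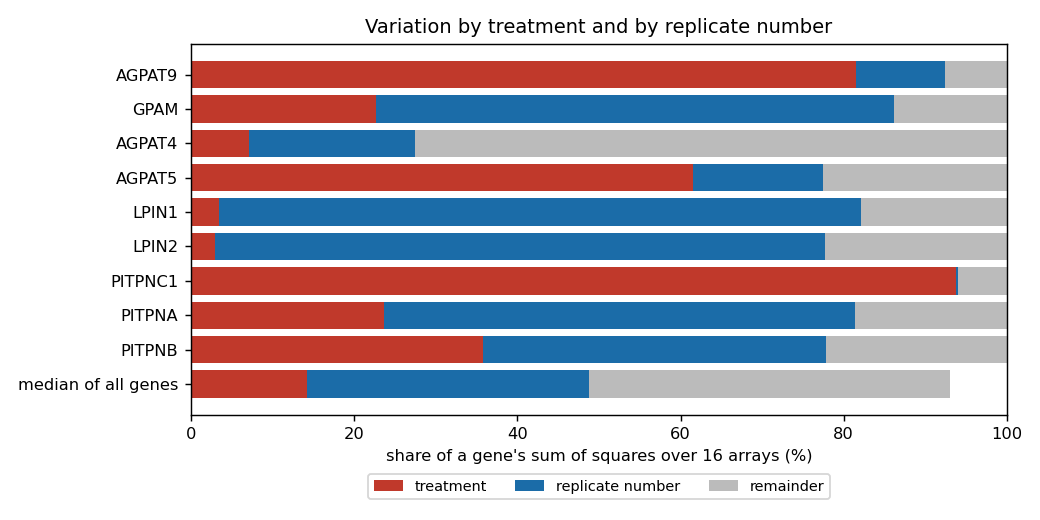
Share of each gene's sum of squares over 16 arrays (percent) that went with treatment, with replicate number or with neither; the last bar gives the 3 medians over all genes, which need not add to 100. Treatment takes most of PITPNC1, AGPAT9 and AGPAT5, and replicate number most of LPIN1, LPIN2, GPAM and PITPNA.

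Unnamed loci, small RNA genes and pseudogenes were skipped in listing the genes most like AGPAT9 and PITPNC1, but not in the ranks given below. With these skipped, the genes most like AGPAT9 over the 16 arrays, by Pearson r, were CARD10 (0.93), GREM1 (0.92), EREG (0.92), TMEM171 (0.91) and ZIC2 (0.91). Those most like PITPNC1 were ZNF295-AS1 (0.97), TIPARP (0.96), CYP1B1 (0.95), HK2 (0.93) and PLA2G4A (0.93). TIPARP and CYP1B1 are standard AHR targets, HK2 encodes a hexokinase, and PLA2G4A a cytosolic phospholipase A2 that releases arachidonate from membrane phospholipids. PLA2G4A averaged 7.72 ± 0.07 in I3P+SR1, 8.03 ± 0.16 in I3P, 7.05 ± 0.08 in SR1 and 7.85 ± 0.25 in DMSO (SD, n = 4 each). AGPAT9 and PITPNC1 had r = 0.87 with each other, at rank 12 among the genes most like AGPAT9 and rank 30 among those most like PITPNC1. AGPAT5 stood near the other end of the list, with r = -0.79 to AGPAT9 and -0.73 to PITPNC1. These correlations describe 16 arrays that share 4 treatments and 4 replicate numbers, and carry no test. AGPAT9 and PITPNC1 were treated as picked by their low SR1 values, and the SR1 arrays are among the 16. Their high r with each other and with other genes low in SR1 follows in part from that choice.

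Of 98 other glycerolipid genes in 10 lists, 85 had a row, and 0 of the 85 passed in any of the 6 comparisons by limma. In SR1 against DMSO 40 changes were positive and 45 negative with a median of -0.0057, and 2 genes had an unadjusted p under 0.05, where 2.93% of all genes did. In I3P+SR1 against SR1, 45 were positive and 40 negative with a median of 0.0080, and 0 had an unadjusted p under 0.05. PNPLA3, a lipid droplet protein with lipase and acyltransferase activity, had log2 values in replicates 1 to 4 of 8.18, 8.47, 7.91 and 7.40 in I3P+SR1, 8.42, 8.83, 8.68 and 7.88 in I3P, 7.78, 7.60, 7.46 and 7.06 in SR1, and 8.18, 8.36, 8.12 and 7.61 in DMSO. SR1 was below DMSO in 4 of 4 replicate numbers, by 0.40 to 0.76. The mean difference of -0.59 (SE 0.25) had adjusted p = 1 by limma and 0.047 with the replicate block, with which 0.321% of all genes passed. In omissions of 1 array added after seeing the data, the blocked call held without I3P replicate 1 or 3 and was lost without any other array, with adjusted p of 0.020 to 0.21 over the 16. The order of its group means, I3P, DMSO, I3P+SR1 and SR1, is that of AGPAT9. Both genes were named through SR1 against DMSO, so the shared lowest place of SR1 follows in part from that choice. I3P+SR1 minus DMSO was only -0.08 (SE 0.25) for PNPLA3 and -0.10 (SE 0.15) for AGPAT9.

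By list, the gene with the smallest p in SR1 against DMSO passed in none. In the supply of glycerol-3-phosphate and its acylation it was GPD2, the mitochondrial glycerol-3-phosphate dehydrogenase, at 0.13, and among lysophosphatidate acyltransferases LCLAT1, a cardiolipin remodelling enzyme, at 0.12. The phosphatase list had PPAPDC3 at -0.23 and the triacylglycerol list DGAT1, which adds the last fatty acid, at -0.27. The CDP-diacylglycerol branch had TAMM41 at -0.12, phospholipid head group synthesis PTDSS2, a phosphatidylserine synthase, at -0.20, and phosphatidylinositol transfer and kinases C2CD2L at -0.15. PLD1, which makes phosphatidate from phosphatidylcholine, was at -0.30 (SE 0.12, adjusted p = 1 by limma). LPCAT2, which reacylates lysophospholipids, was at -0.44 (SE 0.31, adjusted p = 1). Its row was among the dimmest, with the SR1 mean at percentile 0.264 of all genes and the DMSO mean at 1.07. List medians in this comparison ran from -0.07 to 0.09, and in I3P+SR1 against SR1 from -0.03 to 0.27, the highest being the 4 measured genes of triacylglycerol synthesis.

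**Figure D5:**
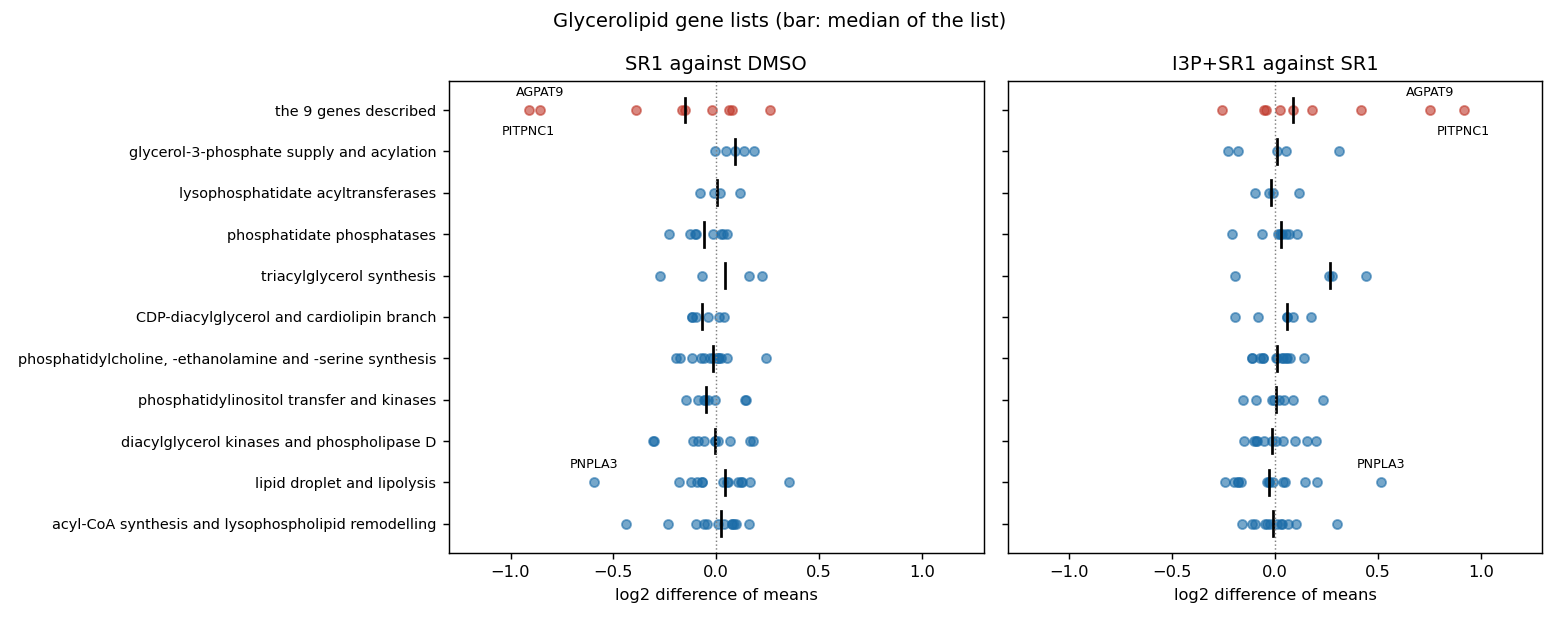
Log2 differences of group means for SR1 against DMSO (left) and I3P+SR1 against SR1 (right), 1 point per gene, in the 9 genes described (red) and 10 lists of other glycerolipid genes (blue), with a bar at each median. AGPAT9 and PITPNC1 lie at -0.85 and -0.91 on the left and 0.75 and 0.92 on the right. Both lie beyond every gene of the other lists, with PNPLA3 next at -0.59 and 0.52. AGPAT9 and PITPNC1 were picked by this response, so their place beyond the lists follows from that choice and is no test.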

How the data were processed

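Total RNA (100 ng per array, per the labels' protocols) from U-87MG cells was labelled with the WT PLUS reagents of Affymetrix. The authors deposited a log2 value for each transcript cluster on each array, made with oligo and RMA per the submitters' processing notes, with no version named. RMA corrects background, quantile normalizes and summarizes probes, and it compresses differences of dim genes. Neither the genome build nor the filter behind the 16510 rows is stated in the sources used here. Rows were named through the platform annotation. Of them 14096 had 1 symbol, 795 had several and 1619 were not listed. The row with the highest mean was kept for each symbol, which gave 14040 genes.

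Groups and replicate numbers came from the labels. limma 3.58.1 in R 4.3.3 modelled the 16 arrays together by group means, without a block and two-sided, with Benjamini-Hochberg adjustment over the 14040 genes and a threshold of 0.05. It was tested on simulated data. The number of arrays limits the precision. Arrays of 1 number, each taken as its deviation from its own group's mean, correlated at 0.30 to 0.52 for SR1 against DMSO, 0.38 to 0.65 for I3P+SR1 against SR1 and 0.22 to 0.52 for I3P+SR1 against DMSO, so the blocked value is printed where it changes a call. For I3P against DMSO (-0.07 to 0.51) and I3P+SR1 against I3P (-0.09 to 0.55) not every pair was above 0.1. The smallest root mean square difference between arrays was 0.258, so none was a duplicate. The labels call the arrays biological replicates without naming separate cultures, so p-values measure only the spread between these arrays, which may be technical. Named are the 9 genes, the gene of each other list with the smallest p in SR1 against DMSO, the 5 genes most like AGPAT9 and PITPNC1, and check genes. The genes and lists were chosen with earlier results of these data known. Alternatives were a block for replicate number or title series, each series alone, only the groups compared, a filter on the dimmest 20% of genes, an intensity trend, median centring, all rows tested, the mean of a gene's rows, and each array left out.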

Additional observations from a re-analysis of the deposited data

Results flagged for a closer look

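In 3 of 36 groups of 4 arrays examined, 1 array lay far from the other 3 by Dixon's criterion at the 95% level, which sets the gap to the nearest array against the group's range. Chance alone marks about 1 in 20 such groups. GPAM was at 9.91 in replicate 3 of I3P+SR1, against 8.91 to 9.04 in the other arrays of that group, and at 9.57 in replicate 3 of DMSO, against 9.02 to 9.08. AGPAT5 was at 9.63 in replicate 4 of SR1, against 9.27 to 9.32. Without that array AGPAT5 differed by 0.18 between SR1 and DMSO, against 0.26 with it.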

How the results depend on the processing

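The comparison of SR1 with DMSO had 2 of the 9 genes passing, and that of I3P+SR1 with SR1 had 1. These are AGPAT9 and PITPNC1, picked by this response, so the counts describe that choice and are no test of it. Within title series SLI and within SMI, each with 2 arrays a group, 0 passed in either comparison. With only the groups compared 1 passed for SR1 against DMSO (PITPNC1). For I3P+SR1 against SR1, 2 passed with the replicate block, with a block for title series and with an intensity trend (AGPAT9 and PITPNC1 each time). With 1 array left out, between 1 and 2 passed in the SR1 comparison with DMSO (AGPAT9 dropped out on removing SR1 replicate 3 or 4, or DMSO replicate 1, 2 or 3), and 1 in that of I3P+SR1 with SR1. In the other 4 comparisons 0 passed under every alternative run. The replicate block changed no other call of the 9 genes. Over all genes, the 23 passing for SR1 against DMSO became 45 with the replicate block, 4 within SLI, 1 within SMI, 6 with only the groups compared, and 9 to 25 with 1 array left out. The 16 for I3P+SR1 against SR1 became 45, 1, 1 and 7 in the same order, 10 to 18 with 1 array left out, and 27 with title series blocked. Of 1395 recomputed changes of single genes, 10 moved by more than the spread between replicates, all within 1 title series. The cause was not tested.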
